A study of Mus musculus with 18 samples.

Results

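The miR-125 family comprised 5 mature miRNAs in the deposited table, chosen by name: the guide strands mmu-miR-125a-5p and mmu-miR-125b-5p, and the opposite strands of the same hairpins, mmu-miR-125a-3p, mmu-miR-125b-1-3p and mmu-miR-125b-2-3p. They were 5 of 1907 mature miRNAs in the table and of 1232 with a read in any library, and all 5 were abundant enough to be tested. Small RNA was sequenced from NIH/3T3, a mouse embryonic fibroblast line, either directly (input) or after immunoprecipitation with an antibody against pseudouridine (Ψ-IP). The cells were WT, or carried a knockdown of Pus1 for 3 days (KD3) or 6 days (KD6), and each of the 6 groups held 3 libraries lettered A, B and C. PUS1 is an enzyme that turns uridine into pseudouridine (Ψ), an isomer with the same base pairing. How the knockdown was made is not given in the sources used here, no library with an unrelated antibody was analysed here, and since only miRNAs were counted, the Pus1 transcript could not be followed.

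A miRNA hairpin is cut into a duplex of a 5p and a 3p strand, of which the guide is loaded into Argonaute and the other strand is mostly degraded. In this family the 5p strands are the usual guides, and they pair with their targets through the seed, bases 2 to 8. The family is the vertebrate counterpart of lin-4, and miR-125b is well known in fibroblasts, blood and neural cells for its targets in the p53 network and in differentiation.

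The mature sequences are shown because the 5p strands share a seed and the 3p strands do not, and because Ψ can form only at a U. They are written 5′ to 3′ from RefSeq, with the seed in capitals.
mmu-miR-125a-5p: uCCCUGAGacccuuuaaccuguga
mmu-miR-125b-5p: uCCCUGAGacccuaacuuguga
mmu-miR-125a-3p: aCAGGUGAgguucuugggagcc
mmu-miR-125b-1-3p: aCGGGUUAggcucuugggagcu
mmu-miR-125b-2-3p: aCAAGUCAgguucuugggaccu
The 5p strands were identical over their first 13 and last 5 bases and differed only between these. miR-125a-5p was 24 nt long with 7 U, and miR-125b-5p was 22 nt long with 6 U. The 3p strands were 22 nt long, with 5 U in miR-125a-3p and 6 U in each of the others. Counted from the 5′ end, miR-125b-2-3p differed from miR-125a-3p by G4A, G7C, G20C and C22U, and the strands shared the 12-base run agguucuuggga. All 5 U of miR-125a-3p, at positions 6, 11, 12, 14 and 15, were also U in miR-125b-2-3p, which had a further U at position 22. miR-125b-1-3p differed from miR-125a-3p by A3G, G7U, U11C and C22U, and its U stood at positions 6, 7, 12, 14, 15 and 22.

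The hairpins are shown for the Mir125a and Mir125b-1 genes to place the strands within them, with the 5p and 3p strands in capitals.
Mir125a: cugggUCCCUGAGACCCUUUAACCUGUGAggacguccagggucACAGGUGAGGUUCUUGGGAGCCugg
Mir125b-1: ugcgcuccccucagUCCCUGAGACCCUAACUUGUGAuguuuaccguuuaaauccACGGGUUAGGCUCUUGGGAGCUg
All lie on the plus strand of GRCm38. Mir125a lies at chr17:17830812-17830879 within Spaca6, where it overlaps an exon, and ends a cluster with Mir99b and Mirlet7e that spans 692 bp. Mir125b-1 lies at chr9:41581926-41582002 in an intron of the noncoding genes 3110039I08Rik and Gm49317 and in an exon of Gm28119, 50578 bp from end to end of a cluster with Mir100 and Mirlet7a-2. Mir125b-2 lies at chr16:77646273-77646343 in an intron of Mir99ahg, in a cluster with Mir99a and Mirlet7c-1 that spans 47408 bp. miR-125b-5p is made from both Mir125b hairpins with the same sequence, so its reads cannot be assigned to either, whereas the 3p strands differ and each marks its own hairpin. The deposited counts of miR-125b-5p were split by the authors' pipeline between the loci, with 51.9% to 54.9% in the Mir125b-1 row, and were summed here.

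The libraries held between 3989031 and 15099781 mapped reads, except KD6 input A with 241109. The lowest r between KD6 input libraries was 0.917, against 0.958 or more in the other groups. In KD6 input A, miR-125a-3p rested on 22.5 estimated counts and miR-125b-2-3p on 20.2. For the members, the ratios of Ψ-IP to input, their changes in KD6 against WT and the within-library differences are therefore given with and without that library. The ratios of the cluster neighbours and of miR-351-5p are given only with it. Reads outside miRNA rows made up 5.47% to 9.96% of mapped reads in the inputs and 14.8% to 38.2% in the Ψ-IP libraries, where the share was 14.8% to 18.6% in WT, 27.9% to 38.2% in KD3 and 23.2% to 30.3% in KD6; the part of this difference in the results was not tested. The 6 miRNAs taken as fibroblast markers were present in all 18 libraries, with miR-21a-5p at a median of 214892 per 1000000 miRNA reads, while miRNAs taken as markers of other cells were mostly rare. The neuronal miR-124-3p, the blood miR-142a-3p, miR-223-3p and miR-451a, the muscle miR-1a-3p and miR-133a-3p and the epithelial miR-141-3p, miR-200b-3p and miR-200c-3p were at no more than 11.2 on that scale, and at 0 in 1 to 17 libraries each. The exceptions were the neuronal miR-9-5p at 3013 to 8451 and the hepatocyte miR-122-5p at 23.1 to 227, both present in every library.

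Levels are given as CPM, estimated counts per 1000000 miRNA reads after median-ratio scaling of the libraries. A read stands for a whole miRNA, so no correction for length was made, but adapter ligation differs between sequences and a ratio of reads between miRNAs is not a ratio of molecules. In WT input, miR-125b-5p was the most abundant member at 9357 ± 211 CPM (SD, n = 3), followed by miR-125a-5p at 2563 ± 178 and miR-125b-1-3p at 1744 ± 95.7. miR-125b-2-3p at 59.5 ± 3.14 CPM and miR-125a-3p at 50.5 ± 5.74 came last, and these 2 neighbours in the order differed by little more than their SDs. Among all miRNAs of WT input, miR-125b-5p ranked 13 and miR-125a-5p 34 by reads per 1000000, against 48 for miR-125b-1-3p, 168 for miR-125b-2-3p and 178 for miR-125a-3p. In the WT Ψ-IP the ranks were 15 for miR-125b-5p, 16 for miR-125a-5p, 45 for miR-125b-1-3p, 114 for miR-125a-3p and 355 for miR-125b-2-3p.

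**Figure D1:**
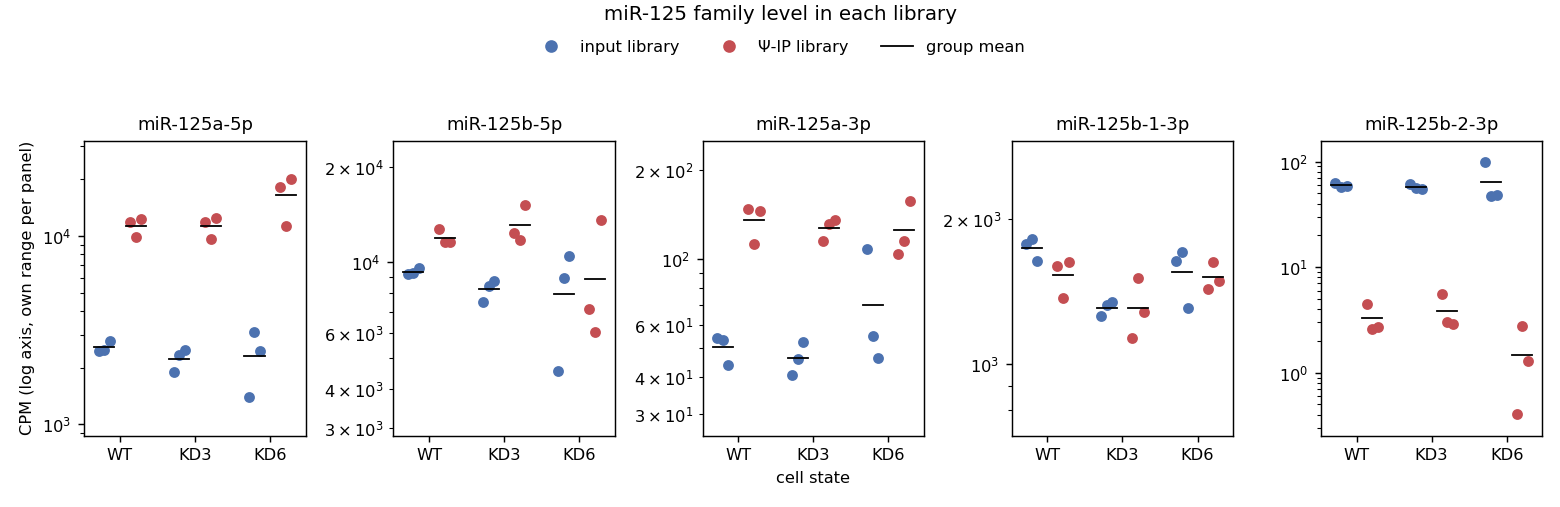
Level of each miR-125 family member in every library, in CPM on a log axis with its own range in each panel, for WT, KD3 and KD6 cells. Points are single libraries and black lines group means; miR-125a-5p was higher in all Ψ-IP than in all input libraries of each state, and miR-125b-2-3p was lower.

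The guide strands were compared first, to ask which family members are recovered by the Ψ antibody. miR-125a-5p was higher in the Ψ-IP than in the input of all 3 cell states, whereas miR-125b-5p, with the same seed, had log2 ratios of only 0.15 to 0.67.

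In WT cells the level of miR-125a-5p in input libraries A, B and C was 2443, 2478 and 2767 CPM, and 11828, 9856 and 12262 CPM in the Ψ-IP libraries. In KD3 its level was 1906, 2325 and 2477 CPM in input, and 11885, 9677 and 12487 CPM in the Ψ-IP. In KD6 it was 1392, 3082 and 2450 CPM in input, and 18195, 11340 and 20103 CPM in the Ψ-IP. In each state the lowest Ψ-IP library lay above the highest input library, and KD6 input A was the lowest of all 18. The log2 ratio of Ψ-IP to input was 2.14 ± 0.24 (SE) in WT (edgeR quasi-likelihood test, adjusted p = 1.04e-07), 2.34 ± 0.24 in KD3 (3.24e-08) and 2.83 ± 0.25 in KD6 (1.99e-09). Without KD6 input A these ratios were 1.86, 2.01 and 2.12, and they remained past the threshold.

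For miR-125b-5p, the WT level was 9189, 9288 and 9593 CPM in input and 12717, 11615 and 11579 CPM in the Ψ-IP. In KD3 it was 7529, 8440 and 8738 CPM in input and 12354, 11737 and 15128 CPM in the Ψ-IP. In KD6 it was 4547, 8909 and 10472 CPM in input and 7108, 6015 and 13555 CPM in the Ψ-IP. The Ψ-IP libraries lay above the input libraries in WT and KD3 and overlapped with them in KD6. The log2 ratio was 0.36 ± 0.26 in WT, with a 95% interval of −0.19 to 0.90 (edgeR, adjusted p = 0.227) and a value of 0.076 without KD6 input A, and 0.67 ± 0.26 in KD3 (adjusted p = 0.0285). The call in KD3 was lost without KD6 input A (0.34, adjusted p = 0.155) and without KD3 input A, KD3 input B or KD3 Ψ-IP C, and under the other library scalings (0.43 with TMM, 0.51 with miRNA library size and 0.08 with total mapped reads). With only the WT libraries in the fit, the WT ratio was 0.24 and passed (edgeR, adjusted p = 0.0251), as did 384 of all miRNAs, which were filtered anew for that fit. In KD6 the log2 ratio was 0.15 ± 0.26 (adjusted p = 0.611), and it turned to −0.58 (adjusted p = 0.0274) without KD6 input A, to −0.28 without KD6 Ψ-IP C, and to −0.15, −0.59 and −0.94 under TMM, miRNA library size and total mapped reads. No direction can therefore be given for miR-125b-5p in KD6.

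The ratio between the guides within a library does not depend on library scaling. Its log2 value for miR-125a-5p over miR-125b-5p was −1.91, −1.91 and −1.79 in WT input and −0.10, −0.24 and 0.08 in WT Ψ-IP, so that the guides, far apart in input, had nearly equal read counts after the Ψ-IP. In KD3 it was −1.98, −1.86 and −1.82 in input and −0.06, −0.28 and −0.28 in the Ψ-IP. In KD6 it was −1.71, −1.53 and −2.10 in input and 1.36, 0.91 and 0.57 in the Ψ-IP, where miR-125a-5p had the higher count in every library. Over the 3 states the Ψ-IP libraries were higher by 2.06 on the log2 scale, 9 against 9 libraries (two-sided exact permutation test within states, p = 0.00025, the smallest it can give, adjusted over 6 measures 0.000375), and by 2.08 without KD6 input A. The difference between Ψ-IP and input was 1.78 in WT, 1.68 in KD3 and 2.72 in KD6, where the pairs of libraries ranged from 1.56 to 1.99, 1.54 to 1.93 and 2.10 to 3.45. Within 1 state 3 against 3 libraries cannot go below an exact p of 0.1, which each state reached.

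**Figure D2:**
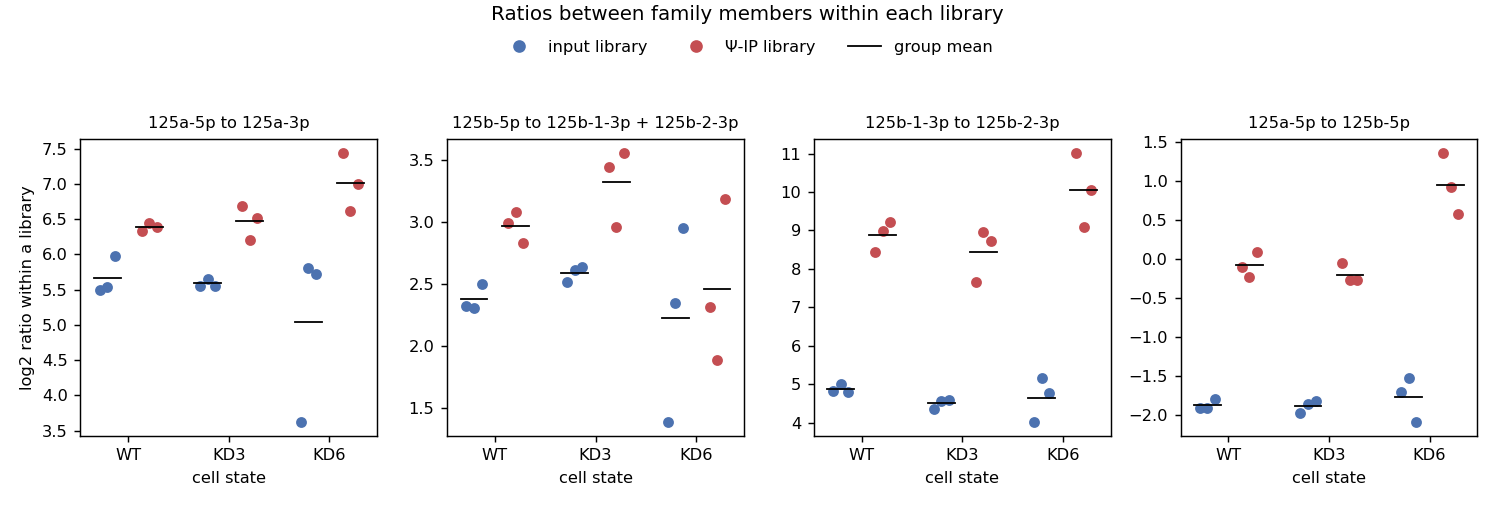
Log2 ratio of read counts between family members within each library, for WT, KD3 and KD6; points are libraries and black lines group means. The ratio of miR-125a-5p to miR-125b-5p lay between −2.10 and −1.53 in the inputs and between −0.28 and 1.36 in the Ψ-IP libraries, and that of miR-125b-1-3p to miR-125b-2-3p between 4.01 and 5.16 in the inputs and from 7.65 upward in the Ψ-IP libraries.

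The 3p strands went 3 ways: miR-125a-3p was higher in the Ψ-IP, miR-125b-1-3p had log2 ratios near 0 that passed the test in none of the states with all 18 libraries under median-ratio scaling but did so in some other fits, and miR-125b-2-3p was many times lower.

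The level of miR-125a-3p, the partner strand of miR-125a-5p, was 54.2, 53.4 and 43.8 CPM in WT input and 147, 113 and 146 CPM in WT Ψ-IP. In KD3 it was 40.6, 46.2 and 52.6 CPM in input and 116, 132 and 136 CPM in the Ψ-IP, and in KD6 it was 109, 55.1 and 46.5 CPM in input and 104, 116 and 157 CPM in the Ψ-IP. The groups did not overlap in WT and KD3, and in KD6 the only input library within the range of the Ψ-IP was A. The log2 ratio was 1.42 ± 0.24 in WT (edgeR, adjusted p = 2.04e-05), 1.46 ± 0.24 in KD3 (1.66e-05) and 1.06 ± 0.26 in KD6 (0.00101), where it was 0.33 with miRNA library size as the scale (adjusted p = 0.277) and −0.004 with total mapped reads. Without KD6 input A the ratios were 1.15, 1.13 and 0.85, all past the threshold.

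The strand from Mir125b-1, miR-125b-1-3p, was at 1773, 1822 and 1638 CPM in WT input and 1597, 1372 and 1628 CPM in WT Ψ-IP. In KD3 its level was 1256, 1324 and 1347 CPM in input and 1132, 1505 and 1281 CPM in the Ψ-IP, and in KD6 1639, 1708 and 1307 CPM in input and 1430, 1627 and 1490 CPM in the Ψ-IP. WT was the only state without overlap, and there the highest Ψ-IP and lowest input libraries were almost level. The log2 ratio was −0.19 in WT (95% interval −0.52 to 0.14, edgeR adjusted p = 0.297), −0.00 in KD3 (−0.33 to 0.33, adjusted p = 0.986) and −0.03 in KD6 (−0.36 to 0.30, adjusted p = 0.870). Without KD6 input A it was −0.47 in WT (adjusted p = 0.0117), −0.33 in KD3 (0.0663) and −0.45 in KD6 (0.0248). It was also called lower in WT with TMM (−0.49), total mapped reads (−0.52) or only the WT libraries (−0.31), in KD3 with total mapped reads (−0.59), and in KD6 with miRNA library size (−0.74) or total mapped reads (−1.07).

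The strand from Mir125b-2, miR-125b-2-3p, was at 63.0, 56.8 and 58.9 CPM in WT input but at 4.45, 2.61 and 2.73 CPM in WT Ψ-IP. In KD3 its level was 61.6, 55.7 and 55.5 CPM in input and 5.61, 3.01 and 2.86 CPM in the Ψ-IP, and in KD6 98.7, 47.6 and 47.8 CPM in input and 0.404, 2.74 and 1.30 CPM in the Ψ-IP. Every Ψ-IP library lay far below every input library. The Ψ-IP values rest on few reads, 18, 14.1 and 17.5 estimated counts in the WT libraries, 14.6, 7.5 and 18.5 in those of KD3, and only 1.2, 6 and 7 in those of KD6, against 348.9 to 856.3 in the inputs other than KD6 input A. The log2 ratio was −4.22 ± 0.34 in WT (edgeR, adjusted p = 7.60e-10), −3.97 ± 0.35 in KD3 (2.62e-09) and −5.30 ± 0.42 in KD6 (4.04e-10), and −4.50, −4.30 and −5.52 without KD6 input A. The reads that matched it came as 74.9, 77.1 and 88 distinct sequences in WT input and as 5.5, 3.6 and 6.5 in WT Ψ-IP, estimates that share the same division of reads.

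Within libraries, miR-125b-1-3p exceeded miR-125b-2-3p by 4.81, 5.00 and 4.80 on the log2 scale in WT input and by 8.45, 8.98 and 9.22 in WT Ψ-IP. The difference between Ψ-IP and input was 4.01 in WT, 3.94 in KD3 and 5.41 in KD6, and 4.46 over the states (exact permutation test, 9 against 9 libraries, p = 0.00025, adjusted 0.000375), or 4.35 without KD6 input A. No Ψ-IP library overlapped with an input library in any state. These strands come from hairpins with the same guide, and were identical at 17 of 22 positions. miR-125a-3p and miR-125b-2-3p, which went in opposite directions, were identical at 18 of 22. Whether reads with mismatches were admitted, which could pass reads between such close strands, is not given in the sources used here.

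The balance of the strands also shifted. The log2 ratio of miR-125a-5p to miR-125a-3p was 5.49, 5.54 and 5.98 in WT input and 6.33, 6.45 and 6.39 in WT Ψ-IP, and the Ψ-IP was higher by 0.72 in WT, 0.88 in KD3 and 1.97 in KD6. Over the states it was higher by 1.19 (exact permutation test, 9 against 9 libraries, p = 0.00025, adjusted 0.000375), and by 0.95 without KD6 input A, in which the ratio was only 3.62. Thus both strands of Mir125a were higher in the Ψ-IP of WT and KD3, the guide by more than its partner.

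For miR-125b-5p against the sum of its 3p strands the difference was smaller, 0.52 over the states (exact permutation test, 9 against 9 libraries, p = 0.0253, adjusted 0.0253). It was 0.59 in WT and 0.73 in KD3, with no overlap, and 0.23 in KD6, where the pairs of libraries ranged from −1.07 to 1.80 (exact p = 0.8). Without KD6 input A it fell to 0.38 (adjusted p = 0.0875) and without KD6 Ψ-IP C to 0.40 (adjusted p = 0.0875).

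The 5p strands made up 86.5% ± 0.98 (SD, n = 3) of the family's reads in WT input and 93.3% ± 0.23 in WT Ψ-IP. In KD3 this share was 88.1% ± 0.59 in input and 94.4% ± 1.28 in the Ψ-IP, and in KD6 84.4% ± 7.30 and 93.5% ± 2.34. KD6 input A held the lowest share, 76.2%. The family as a whole made up 1.57% ± 0.07 of the miRNA reads of WT input and 2.57% ± 0.24 of those of WT Ψ-IP, 1.26% ± 0.14 and 2.46% ± 0.40 in KD3, and 1.5% ± 0.71 and 2.0% ± 0.88 in KD6, where the groups overlapped.

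**Figure D3:**
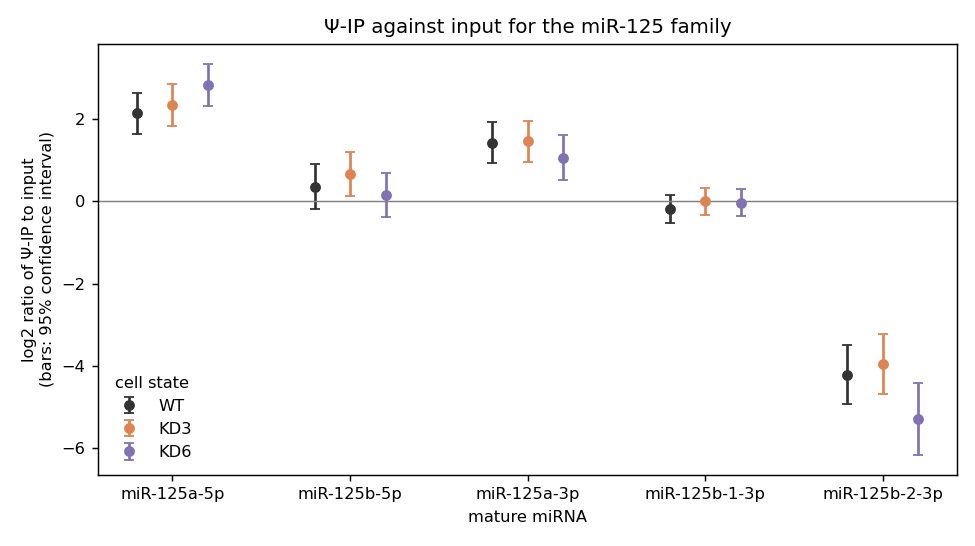
Log2 ratio of Ψ-IP to input for the 5 family members in WT, KD3 and KD6 cells, as fitted by edgeR, with 95% confidence intervals as bars. miR-125a-5p and miR-125a-3p lay above 0 in all states, miR-125b-2-3p lay between −5.30 and −3.97, and the intervals of miR-125b-1-3p held 0.

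These counts of members have to be read against a table in which most miRNAs differed. In WT, 3 of the 5 members passed an adjusted p of 0.05, as did 68.9% of the 550 miRNAs tested. 2 of them were higher in the Ψ-IP, where 31.5% of all miRNAs were, and 1 was lower, where 37.5% were. All 5 members had Ψ-IP and input libraries that did not overlap in WT, against 76.0% of all miRNAs. In KD3, 4 members passed the test against 70.5% of all, 3 of them higher (34.4%) and 1 lower (36.2%), and 4 did not overlap (75.5%). In KD6, 3 members passed against 71.3%, 2 higher (35.8%) and 1 lower (35.5%), and 2 did not overlap (59.3%). The shares of members called were thus near those of all miRNAs. Over the members the median log2 ratio was 0.36, 0.67 and 0.15 for the 3 states in that order, and over all miRNAs tested −0.04, −0.03 and −0.00. Scaling to total mapped reads moved the median of all miRNAs to −0.37 in WT, −0.61 in KD3 and −1.14 in KD6; there 122 of 364 called miRNAs in KD3 and 109 of 393 in KD6 were higher in the Ψ-IP, against 189 of 388 and 197 of 392 under median-ratio scaling. With miRNA library size as the scale, that median was −0.81 in KD6, with 132 of 387 called miRNAs higher.

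The 12 mature miRNAs that share a cluster with the family were all tested. They are let-7 strands, whose guides restrain growth and pluripotency genes, and strands of the miR-99 and miR-100 family. In WT, 5 rose, 3 fell and 4 did not pass the test (edgeR, adjusted p under 0.05), with a median log2 ratio of 0.38. Of all miRNAs tested, 31.5% rose and 37.5% fell there. In KD3 the counts were 7, 2 and 3, with a median of 0.63, where 34.4% of all miRNAs rose and 36.2% fell. In KD6 they were 6, 2 and 4, with a median of 0.65, where 35.8% of all rose and 35.5% fell.

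Beside Mir125a, let-7e-5p rose from 5841, 6278 and 5780 CPM in WT input to 35809, 35301 and 47835 CPM in WT Ψ-IP, a log2 ratio of 2.73 ± 0.17 (adjusted p = 7.94e-12). The other guide of that cluster, miR-99b-5p, had a log2 ratio of 1.01 ± 0.17 (adjusted p = 2.56e-05). Thus the 5p strands of all 3 hairpins of the chromosome 17 cluster were higher in the Ψ-IP, among them miR-125a-5p.

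In the chromosome 16 cluster the neighbours went different ways. miR-99a-5p fell from 4394, 4501 and 4515 CPM in WT input to 785, 745 and 726 CPM in WT Ψ-IP, a log2 ratio of −2.57 ± 0.17 (adjusted p = 1.72e-11), while let-7c-5p rose with a ratio of 1.25 ± 0.23 (adjusted p = 5.49e-05). miR-125b-2-3p, miR-99a-5p and miR-99a-3p, the last at under 2 CPM in each WT input library, were the strands of that cluster that fell in WT. On chromosome 9, let-7a-5p rose by 2.02 ± 0.21 (adjusted p = 3.94e-08) and miR-100-5p had a log2 ratio of 0.35 ± 0.20 (adjusted p = 0.118), near that of miR-125b-5p. There let-7a-2-3p, at only 2.87, 3.71 and 3.56 CPM in WT input and 1.98, 1.12 and 1.21 CPM in WT Ψ-IP, had a ratio of −1.26 ± 0.53 (edgeR, adjusted p = 0.0378). It was not called in KD3 (−0.67, edgeR, adjusted p = 0.276) or in KD6 (−0.59, adjusted p = 0.393). Counts of let-7a-5p and let-7c-5p were summed over all rows of the name, so their reads are not tied to Mirlet7a-2 or Mirlet7c-1.

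**Figure D4:**
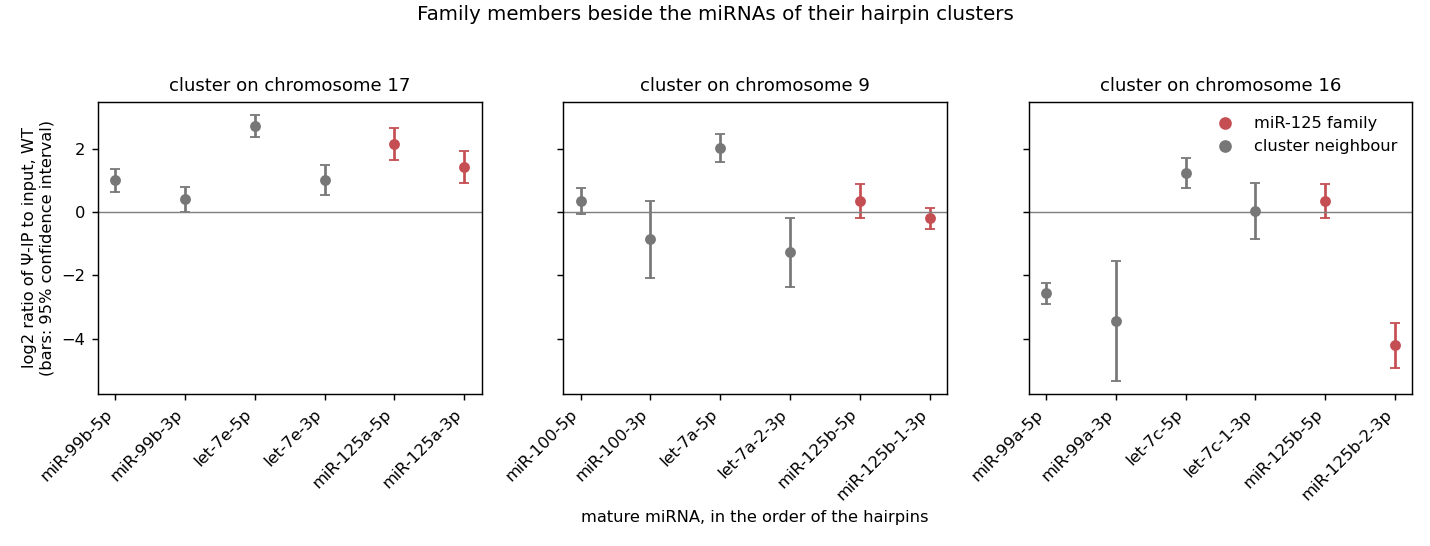
Log2 ratio of Ψ-IP to input in WT for the members (red) and the other mature miRNAs of the same hairpin clusters (grey), in hairpin order along each cluster, with 95% confidence intervals as bars; miR-125b-5p is drawn in both of its clusters. On chromosome 17 all 6 points lie above 0, while on chromosome 16 miR-99a-5p, miR-99a-3p and miR-125b-2-3p lie below −2. Counts of let-7a-5p and let-7c-5p are summed over all rows of the name and are not tied to these clusters.

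Of the table's miRNAs, 1623 had a RefSeq sequence, and 5 of these carried the seed of the 5p members. Besides the members these were miR-351-5p, with 219198 estimated counts over all libraries, and miR-6367 and miR-6394, with none.
mmu-miR-351-5p: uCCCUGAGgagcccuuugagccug
The sequence of miR-351-5p is shown because it parts from the members directly after the seed. Its level was 1521, 1427 and 1409 CPM in WT input and 1887, 1820 and 2302 CPM in WT Ψ-IP, a log2 ratio of 0.46 ± 0.19 (edgeR, adjusted p = 0.0324), with 0.56 in KD3 (adjusted p = 0.0110) and 1.05 in KD6 (adjusted p = 4.37e-05). The 3 measured miRNAs with this seed thus had WT ratios of 2.14, 0.46 and 0.36 with all 18 libraries under median-ratio scaling. For miR-351-5p no other fit is given, so its calls hold for that scaling only. The WT median over all miRNAs was −0.04 in that fit, −0.23 without KD6 input A and −0.35 with TMM.

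The knockdown was examined by asking whether the ratio of Ψ-IP to input changed between states, with the interaction of state and fraction. These comparisons share their libraries with those above and with each other. No family member passed an adjusted p of 0.05 in KD3 against WT, where 0% of all miRNAs did and 16 of 550 had an unadjusted p under 0.05. None passed in KD6 against WT, where 0% did and 119 of 550 had an unadjusted p under 0.05, nor in KD6 against KD3, where 0.182% did and 112 had an unadjusted p under 0.05. DESeq2 called 0 members in these 3 comparisons as well, beside 0, 27 and 20 miRNAs of the whole table. Without KD6 Ψ-IP C, edgeR called 57 miRNAs in KD6 against WT and 63 in KD6 against KD3, and without KD6 input A 14 and 21, with no member among them in either fit.

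Unadjusted p-values under 0.05 came from miR-125a-5p in KD6 against WT and from miR-125b-2-3p in KD6 against KD3. The log2 ratio of miR-125a-5p was higher in KD6 by 0.69 ± 0.33 (95% interval 0.00 to 1.38, edgeR, adjusted p = 0.228), and by 0.26 without KD6 input A (adjusted p = 0.640); scaled to total mapped reads it was lower, −0.09. The median change over all miRNAs was 0.25, or 0.055 without KD6 input A and −0.56 with total mapped reads. That of miR-125b-2-3p changed by −1.34 ± 0.58 in KD6 against KD3 (95% interval −2.54 to −0.13, edgeR, adjusted p = 0.192), or −1.22 without KD6 input A (adjusted p = 0.175), on the 1.2, 6 and 7 counts of the KD6 Ψ-IP.

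For the other changes the intervals were wide. In KD6 against WT the change was −0.20 for miR-125b-5p (95% interval −0.97 to 0.56), −0.36 for miR-125a-3p (−1.08 to 0.36), 0.16 for miR-125b-1-3p (−0.31 to 0.62) and −1.09 for miR-125b-2-3p (−2.27 to 0.10). Without KD6 input A these changes were −0.66, −0.29, 0.014 and −1.02. In KD3 against WT the changes of the members ran from 0.04 for miR-125a-3p (−0.65 to 0.73) to 0.31 for miR-125b-5p (−0.45 to 1.08). In simulated data with as many libraries, 31.5% of the 2-fold and 72.5% of the 4-fold changes in the KD6 against WT interaction were called. There 513 miRNAs were tested, and every group had the same mean before the change, unlike in these data. These rates therefore do not carry over to miRNAs with few Ψ-IP counts, such as miR-125b-2-3p.

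The inputs were compared to follow the level of the family itself after the knockdown. In bulk libraries, fewer cells with a miRNA and less of it per cell cannot be told apart. No member passed the test in KD3 against WT, where 0% of all miRNAs passed in edgeR and 44 of 550 had an unadjusted p under 0.05. No member passed in KD6 against WT (3.09% of all, 78 of 550 at an unadjusted p under 0.05) or in KD6 against KD3 (4.0% of all, 97 at an unadjusted p under 0.05), and DESeq2 also called 0 members in the 3 comparisons of inputs, beside 10, 30 and 37 miRNAs of the whole table. miR-125b-1-3p was the only member with an unadjusted p under 0.05, in KD3 against WT. Its level was 1256 to 1347 CPM in KD3 input and 1638 to 1822 CPM in WT input, and the log2 ratio was −0.41 ± 0.16 (edgeR, adjusted p = 0.398). It passed when the fit held only the libraries compared (−0.40, edgeR, adjusted p = 0.00422). In that fit, for which the miRNAs were filtered anew, 75 of all miRNAs passed. For miR-125b-5p the log2 ratio in KD3 against WT was −0.18 ± 0.26 (edgeR, adjusted p = 0.918). In KD6 against WT the log2 ratios of the members lay between −0.23 for miR-125b-5p and 0.26 for miR-125a-3p, and without KD6 input A these ends became 0.091 and 0.055.

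Finally, the miRNAs whose levels followed each member most closely over the 18 libraries were listed, among 147 with at least 100 CPM on average, by the root mean square difference of their centred log2 CPM. The pattern of miR-125a-5p was nearest to that of let-7b-5p (0.27), let-7a-5p (0.29) and miR-365-3p (0.29), where the median of the candidates was 1.18. That of miR-125b-5p was nearest to miR-298-5p (0.24), miR-25-3p (0.31) and miR-191-5p (0.34), with a median of 0.93. For miR-125a-3p the nearest were miR-409-3p (0.34), miR-9-5p (0.36) and miR-151-3p (0.38), with a median of 0.87, and for miR-125b-1-3p they were miR-28a-3p (0.31), miR-25-3p (0.33) and miR-450b-5p (0.34), with a median of 0.92. miR-125b-2-3p stood farther from its nearest, miR-24-2-5p (0.44), miR-199a-5p (0.55) and miR-140-3p (0.56), with a median of 2.48. Its Ψ-IP values rest on 1.2 to 18.5 estimated counts, while the candidates had at least 100 CPM on average. All these distances span input and Ψ-IP libraries, so they take in the difference between the fractions.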

How the data were processed

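Reads were counted by the authors with the SeqImp pipeline (mm10, Ensembl 89 and miRBase 21, version not given), which deposited estimated counts per miRNA row, reads that match several loci being divided: 47.0% of the non-zero values were not whole within 1e-06. Rows of the same mature miRNA were summed and rounded (2045 rows, 1907 miRNAs). All 18 libraries were fitted together as 6 groups with edgeR 4.0.16 (R 4.3.3): median-ratio (RLE) factors, filterByExpr (550 miRNAs kept), quasi-likelihood test, Benjamini-Hochberg over all 550, threshold 0.05. DESeq2 1.42.0 served as an alternative. Log2 ratios within a library had 0.5 counts added to each side and were compared by two-sided exact permutation within states over 8000 permutations (Python 3.11.15). In simulated counts with equal group means before the change, 61.6% of 2-fold and 83.3% of 4-fold changes between WT Ψ-IP and input were called. Named were the 5 members, their 12 cluster neighbours, miRNAs with the same seed and the 3 nearest patterns of each member; members and lists were chosen with earlier results of these data known. Sequences came from RefSeq (GRCm38.p6), gene positions from GENCODE M21. The labels do not say that replicates were separate cultures, so p-values measure the spread between these libraries, and the counts carry counting error only at the depths given. Same-lettered libraries deviated together with r over 0.1 in every pair only for the WT and KD3 inputs (r = 0.20 to 0.61 over 188 miRNAs) and the KD3 and KD6 inputs (r = 0.24 to 0.34).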

Additional observations from a re-analysis of the deposited data

How the results depend on the processing

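Of the planned checks of the counts of called miRNAs other than leaving out a library, 129 stayed within 1.5 times of the value given and 3 did not, and the 21 of the within-library ratios and shares all kept their direction and side of the threshold. With only the compared libraries in the fit, 5 members were called in WT, beside 384 of all miRNAs, and 1 in the KD3 against WT inputs, beside 75; with total mapped reads as library size, 1 member, miR-125b-2-3p, was called in the KD6 against WT change, beside 51 of all miRNAs, all lower. Leaving out a library gave 3 to 5 members called in KD6, and a ratio of miR-125b-5p to its 3p strands of 0.38 to 0.64. The 5 were reached without KD6 input A, where 394 of all miRNAs were called, 165 of them higher, around a median of −0.35. Fits on fewer than 18 libraries filtered the miRNAs anew, so the number tested need not be 550 and no share is given. Direction turned under total mapped reads for miR-125a-3p in KD6 (−0.004), miR-125b-5p in KD6 (−0.94, adjusted p = 0.0188), and the changes of miR-125a-3p in KD3 against WT (−0.22) and of miR-125a-5p (−0.09) and miR-125b-1-3p (−0.55) in KD6 against WT. It also turned with miRNA library size for miR-125b-5p in KD6 (−0.59) and for the KD6 against WT change of miR-125b-1-3p (−0.41), with TMM for miR-125b-5p in KD6 (−0.15), and with the largest row for miR-125b-1-3p in KD3 (0.001). Leaving out libraries in turn moved miR-125b-1-3p from −0.33 to 0.13 in KD3 and from −0.45 to 0.069 in KD6, and miR-125b-5p from −0.58 to 0.41 in KD6. It moved the change of miR-125a-3p in KD3 against WT from −0.088 to 0.136, that of miR-125b-5p in KD6 against WT from −0.66 to 0.045, and the KD6 against WT inputs of miR-125b-5p from −0.48 to 0.091. The cause was not tested.

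The replicate block (the letter as a term) left 3, 4 and 3 members called in WT, KD3 and KD6, beside 377, 386 and 390 of the 550 miRNAs tested. It called 0 members in every comparison of states and changed no call of a member. The ratio of miR-125b-5p to its 3p strands kept its call when paired by letter (0.52, exact sign-flip test, adjusted p = 0.0195). Depth limits miR-125b-2-3p most, with 1.2 to 18.5 estimated counts in the Ψ-IP libraries, and KD6 input A throughout.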
